A study of Mus musculus with 20 samples.

Results

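The genes described here are the zinc finger genes named Zfp plus a number that were expressed in mouse oocytes or early embryos. Of 23309 gene symbols in the files, 331 matched that name once Zfp36 and Zfp57 were set aside, and 169 of these reached a mean of 2 FPKM in at least 1 of 8 groups of libraries. FPKM is fragments scaled to transcript length and to the number of mapped fragments, so levels can be compared between genes per length. The members were thus chosen by the group means themselves, so those means are a description: a member that reached 2 FPKM in a single group was already high there and low elsewhere, and 37 members were of that kind, while 28 reached the limit in all 8 groups. The members nearest the limit were Zfp606 with a highest group mean of 2.01 FPKM and Zfp784 with 2.03 FPKM inside it, and Zfp617 and Zfp563, each with 1.99 FPKM, outside it. Among the 162 symbols left out, 21 were listed at 0 in every library of the 8 groups.

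C2H2 zinc finger proteins carry arrays of short, zinc-bound finger modules, most of which read DNA sequence, and they make up a very large class of mammalian DNA-binding regulators. Many of them also carry a KRAB box, which recruits TRIM28 (KAP1) and through it the histone methyltransferase SETDB1 and HP1 proteins, and this machinery silences retrotransposons and protects imprinted loci in early embryos. Many of the genes lie in tandem clusters that arose by duplication. A full-grown oocyte is transcriptionally silent and runs on stored mRNA, which is translated and degraded during meiotic maturation and after fertilisation, and the main wave of transcription from the mouse embryonic genome starts at the 2-cell stage. BTG4 is an adaptor that links the translation machinery to the CCR4-NOT deadenylase in the decay of maternal mRNA.

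The study sequenced purified mRNA from pools of 60 oocytes or embryos of ICR females that were 21 to 23 days old and had been injected with PMSG and hCG, and also mated where embryos were collected. In the Btg4 experiment, wild-type libraries and libraries labelled Btg4-/- were made from oocytes at the germinal vesicle stage (GV, prophase arrest), mature oocytes at metaphase II (MII), zygotes and 2-cell embryos, with 2 libraries in each of the 8 groups. The Erk experiment has 1 library each of wild-type GV oocytes, wild-type MII oocytes and the same stages labelled Erk-/-. The labels do not say which Btg4 allele was used, which Erk gene was removed or in which cells, nor whether the libraries of a group came from different animals, so a p-value here measures the spread between these libraries, which may be technical.

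Btg4 itself went against the genotype label at some stages. Its level was 1450 and 1673 FPKM in wild-type GV oocytes and 1980 and 1881 FPKM in GV oocytes labelled Btg4-/-. It was lower in the labelled libraries at MII, where wild type had 415 and 406 FPKM and the labelled pair 172 and 191 FPKM, and in zygotes, where the values were 610 and 559 FPKM against 139 and 164 FPKM. In 2-cell embryos it was higher in the labelled pair, at 3514 and 3632 FPKM against 1147 and 964 FPKM. A gene-level value checks a deletion only where it counts the deleted part, which the labels do not give. The groups are therefore called libraries labelled Btg4-/- throughout, and every direction given for them rests on that label.

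The files hold no counts. From the widths of the deposited intervals, depth was estimated at 3.05e+06 to 5.58e+06 fragments for a Btg4-experiment library and 6.42e+06 to 9.17e+06 for an Erk-experiment library, and a member at 2 to 5 FPKM had a median interval of plus or minus 24.2% to 33.5% and 19.0% to 23.7% of its value. Of 12 oocyte markers, all were at 1 FPKM or more in every group except wild-type 2-cell embryos, where 11 were and Figla was listed at 0. Granulosa and cumulus markers summed to 68.4 to 84.7 FPKM in the 4 GV libraries of the Btg4 experiment, with 3 of 13 at 0, and to 0.873 to 15.1 FPKM in its other libraries. Blood markers summed to 50.3 and 85 FPKM in the wild-type MII libraries and to at most 10.9 FPKM elsewhere, with Ptprc at 0 throughout. Their part in the GV and MII results was not tested.

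The members' FPKM summed to 0.256% and 0.262% of the library total in wild-type GV oocytes, 0.309% and 0.316% in MII oocytes, 0.468% and 0.523% in zygotes and 0.418% and 0.428% in 2-cell embryos. In libraries labelled Btg4-/- the same share was 0.235% and 0.249% at GV, 0.274% and 0.294% at MII, 0.345% and 0.391% in zygotes and 0.192% and 0.211% in 2-cell embryos. The zygote thus held the largest share in either genotype, and the 2-cell pair labelled Btg4-/- the smallest share among the 8 groups. By the group with the highest mean, which is the measure that chose the members, 59 peaked in wild-type zygotes, 36 in zygotes labelled Btg4-/- and 36 in wild-type 2-cell embryos. The members at or above 2 FPKM numbered 121 and 128 in the 2 wild-type zygote libraries, against 85 and 84 in wild-type GV oocytes. The total itself ran from 299983 to 491035 FPKM over these libraries, so the share also moves with it. In wild type the members summed to 1204 and 1190 FPKM at GV and 1105 and 1200 FPKM at MII, which overlapped while shares rose. Zygotes had 1658 and 1799 FPKM and 2-cell embryos 1254 and 1294 FPKM. The labelled sums were 1152 and 1093 (GV), 1310 and 1388 (MII), 1467 and 1598 (zygote) and 873 and 935 FPKM (2-cell). FPKM is relative to each library's mRNA, so fewer transcripts per cell and more of everything else cannot be told apart.

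The most abundant members over the 16 libraries were Zfp655, Zfp296, Zfp706, Zfp212, Zfp957 and Zfp383. Zfp655 was at 119 and 107 FPKM in wild-type GV oocytes, 93.5 and 108 FPKM at MII, 85.4 and 94.0 FPKM in zygotes and 48.4 and 47.5 FPKM in 2-cell embryos. Zfp296, which promotes reprogramming to pluripotency, was highest at GV with 189 and 173 FPKM and stood at 50.1 and 56.4 FPKM in zygotes. Zfp212 took the opposite course, from 16.8 and 19.0 FPKM at GV to 162 and 156 FPKM in zygotes. Zfp706, a small single-finger protein tied to the exit from pluripotency, was highest in wild-type 2-cell embryos at 215 and 219 FPKM. These members thus peaked at different stages, and no common course ran through them.

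By sequence the members fell into a pair of classes that the choice of members did not use. A KRAB A-box pattern was found in the longest reading frame of 75 members and was absent from that of 93, and Zfp939 had no reading frame in the annotation used. The members with the pattern had a median of 12 fingers and those without it a median of 6, at similar median protein lengths of 546 and 567 residues. In 8 members without the KRAB pattern no finger matched the strict pattern searched. Divergent KRAB boxes are missed by a pattern of this kind, so the class without it is not free of KRAB proteins.

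**Figure D1:**
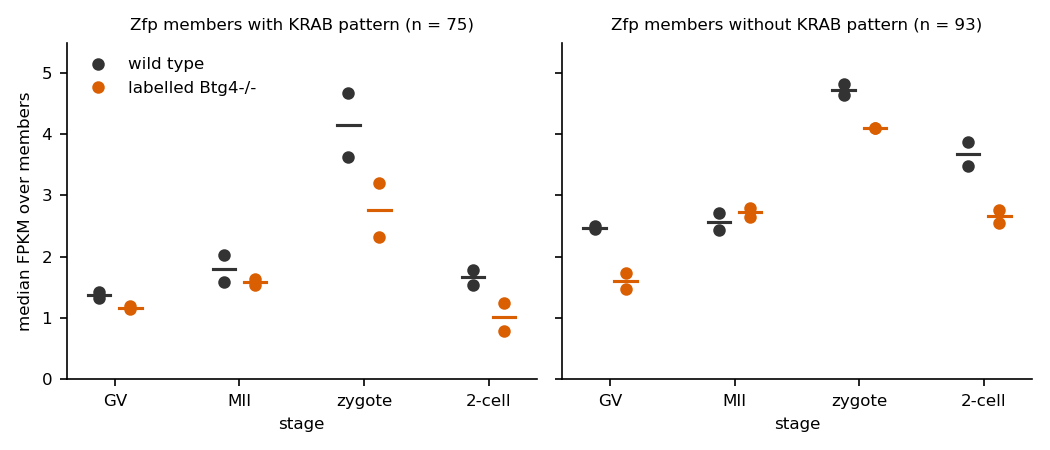
Median FPKM (vertical axis) over the 75 members with the KRAB pattern (left) and the 93 without it (right) at each stage of the Btg4 experiment. Each point is 1 library and each bar the mean of the 2 libraries; in wild-type 2-cell embryos the KRAB class lies at 1.78 and 1.54 FPKM and the other class at 3.48 and 3.87 FPKM.

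Both classes had their highest wild-type median in the zygote. The median of the KRAB class was 1.43 and 1.33 FPKM in the GV libraries, 1.59 and 2.02 FPKM at MII, 3.63 and 4.68 FPKM in zygotes and 1.78 and 1.54 FPKM in 2-cell embryos, so the zygote libraries overlapped no other wild-type stage. Members without the pattern had medians of 2.50 and 2.45 FPKM at GV, 2.71 and 2.43 FPKM at MII, 4.63 and 4.81 FPKM in zygotes and 3.48 and 3.87 FPKM in 2-cell embryos. The difference between the courses was not tested.

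The steps of the wild-type course were tested with limma on log2(FPKM + 1) over 12311 genes, with Benjamini-Hochberg adjustment and a threshold of 0.05. A log2 change on this scale understates the change of a low gene. All 169 members entered the test because membership already required a higher level than its filter of 1 FPKM.

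From GV to MII, 41 members rose and 31 fell in wild type, or 24.3% and 18.3%, where 25.2% of all genes tested rose and 28.5% fell. Among the 65 members at 2 FPKM or more at both stages, 16 rose and 14 fell. Zfp91, an E3 ubiquitin ligase, was at 1.42 and 2.59 FPKM at GV and at 18.8 and 29.3 FPKM at MII, a log2 change of 3.06 ± 0.32 (SE; adjusted p = 3.98e-06). Zfp598, the ubiquitin ligase that marks collided ribosomes, went from 7.16 and 5.29 FPKM to 39.5 and 40.3 FPKM, a log2 change of 2.51 ± 0.18 (adjusted p = 1.32e-07). The GV and MII values of neither gene overlapped. Zfp839 rose by 2.39 ± 0.23 and Zfp580 by 2.71 ± 0.40 on the log2 scale. Zfp513 made the steepest fall, from 50.7 and 46.9 FPKM at GV to 1.35 and 0.818 FPKM at MII, a log2 change of -4.59 ± 0.20 (adjusted p = 1.68e-09). Zfp593, a factor of 60S ribosomal subunit biogenesis, was at 28.5 and 25 FPKM at GV and at 0.513 and 1.27 FPKM at MII, a log2 change of -3.90 ± 0.42. Zfp524 fell from 52.5 and 50.8 FPKM to 2.44 and 2.50 FPKM, and Zfp688 from 16 and 13.8 FPKM to 1.58 and 0 FPKM. GV oocytes here also carried the granulosa and cumulus signal, and MII wild-type oocytes the blood signal, given above. In the single wild-type libraries of the Erk experiment Zfp513 instead rose, from 59.4 FPKM at GV to 249 FPKM at MII. Zfp598 went from 70.0 to 39.6 FPKM there, Zfp839 from 22.7 to 0 FPKM and Zfp91 from 20.4 to 19.1 FPKM. Zfp593 fell there too, from 11.8 to 0 FPKM. Zfp580 and Zfp688 were listed at 0 at both stages, and Zfp524 was at 0.0975 and 0 FPKM.

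From MII to the zygote most of the called members moved upward. In wild type 56 rose and 2 fell, or 33.1% and 1.18%, against 20.5% and 8.0% of all genes tested, and the median member changed by 0.60 on the log2 scale against 0.22 for all genes. Of the 85 members already at 2 FPKM at both stages, 26 rose and 1 fell, and of the 157 that reached 2 FPKM in a group outside this comparison, 49 rose and 2 fell. The number that rose depends on scaling: with median-of-ratios scaling, which brings the median of all genes to 0.04, 37 rose and 6 fell, and with quantile normalization, which brings it to 0.00, 29 rose and 4 fell. Their share among the called members went from 96.6% to 86.0% with median-of-ratios scaling. It also leaned on single libraries, with 33 rising when wild-type MII replicate 1 was left out and 23 when wild-type zygote replicate 2 was.

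All 32 called members of the KRAB class rose at this step, which is 42.7% of the class, and its median change was 0.83. Over both classes 8 members reached 2 FPKM in wild-type zygotes alone, so their direction was set by that choice. The class counts were not made without them. In the class without the pattern 24 rose and 2 fell, 25.8% and 2.15%, with a median of 0.51. With median-of-ratios scaling the counts became 22 and 0 in the KRAB class and 15 and 6 in the other, and with quantile normalization 16 and 0 and 13 and 4. Rising KRAB members numbered 17 and 20 without wild-type MII replicates 1 and 2. Leaving out wild-type zygote replicate 2 left 12 of them and 11 others, so the gap in number was small in that fit. The difference between the classes was not tested. Zfp534 had 0.0677 and 0.251 FPKM at MII and 6.05 and 8.05 FPKM in zygotes, a log2 change of 2.79 ± 0.26 (limma, adjusted p = 1.37e-05). Zfp735 went from 1.79 and 3.74 FPKM to 17.0 and 23.1 FPKM (log2 change 2.52 ± 0.34), and Zfp108 from 4.86 and 4.01 FPKM to 22.3 and 27.0 FPKM (log2 change 2.24 ± 0.27). The libraries of the stages did not overlap for any of these 3 genes. The 2 members that fell were Zfp639 (log2 change -0.75 ± 0.23, adjusted p = 0.0304) and Zfp706 (-0.44 ± 0.13, adjusted p = 0.0234). Without wild-type MII replicate 2 the adjusted p of Zfp639 was 0.171 and that of Zfp706 0.150, and without wild-type zygote replicate 1 they were 0.0513 and 0.149. Without wild-type zygote replicate 2 that of Zfp639 was 0.183.

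At the wild-type 2-cell stage most of the called members went down. Between zygote and 2-cell embryo 30 members rose and 81 fell, 17.8% and 47.9%, against 27.1% and 30.2% of all genes tested, and the median member changed by -0.61 against -0.06. Among the 78 members at 2 FPKM at both stages, 6 rose and 34 fell. Of the 138 members that reached the limit outside this comparison, 14 rose and 74 fell. The KRAB class carried more of the falls: 46 of its 75 members fell (61.3%, median -1.13) and 8 rose, where 34 of the other 93 fell (36.6%, median -0.34) and 22 rose. Across scalings the KRAB falls numbered 43 and 48, and over fits with 1 library left out 37 to 46. Members at 2 FPKM in wild-type zygotes or wild-type 2-cell embryos alone had their direction here set by that choice. The class counts were not made without these members. The difference between the classes was not tested.

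Zfp735, which had risen to 17.0 and 23.1 FPKM in wild-type zygotes, was back at 0.426 and 0.303 FPKM in 2-cell embryos, a log2 change of -3.93 ± 0.34 (limma, adjusted p = 7.14e-07). Zfp653 dropped from 12.5 and 11.6 FPKM to 0 and 0.425 FPKM, and Zfp60 from 36.7 and 42.2 FPKM to 2.43 and 3.68 FPKM. Zfp873 went from 17.9 and 19.3 FPKM to 0.451 and 1.8 FPKM, a log2 change of -3.28 ± 0.35. In all 4 genes every zygote library lay above every 2-cell library.

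The members that rose at the 2-cell stage included genes that were at or near 0 in wild-type zygotes. Zfp622, Zfp352 and Zfp367 reached 2 FPKM in wild-type 2-cell embryos alone, so that level made them members and their differences from other groups are given as a description, with no test. Zfp622, a factor of cytoplasmic 60S ribosome maturation, was at 0.215 and 0.223 FPKM in wild-type zygotes and at 39.1 and 39.5 FPKM in 2-cell embryos, a log2 change of 5.05. Zfp707, which stood at 9.40 and 8.29 FPKM in wild-type GV oocytes, was listed at 0 in both wild-type zygote libraries and reached 50.5 and 51.1 FPKM. Zfp352, a known 2-cell transcript, was listed at 0 in every library of the GV, MII and zygote stages and reached 33.8 and 20.4 FPKM. Zfp367 went from 0.283 and 0.294 FPKM to 21.9 and 26.2 FPKM, a log2 change of 4.27, and Zfp775 from 0.240 and 0.0498 FPKM to 17.0 and 17.3 FPKM. Zfp775 was taken for its promoter after its values had been seen. In the coordinates of the files (mm9), Zfp622 lies at chr15:25914120-25928237, Zfp707 at chr15:75799614-75806295, Zfp352 at chr4:89885510-89892378, Zfp367 at chr13:64234364-64254507 and Zfp775 at chr6:48563178-48573226. Zfp513 also rose, from 4.33 and 4.98 FPKM to 59.9 and 72.5 FPKM. In the wild-type libraries of the Btg4 experiment it was thus high in GV oocytes, low at MII and in zygotes, and high again in 2-cell embryos.

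RefSeq promoter windows (GRCm38.p6, 250 bases before to 50 bases after the start of the gene, printed 5′ to 3′ on the gene's strand) are shown for 4 of the 5 members with these large rises, because all 4 went from at most 0.294 FPKM in wild-type zygotes to between 17.0 and 39.5 FPKM in 2-cell embryos and can be read side by side. Zfp707 had no entry in the promoter table. The capitals mark the CCAAT box (CCAAT, or ATTGG on the other strand) and the GC box (GGGCGG, or CCGCCC on the other strand), which do not overlap each other here.
Zfp622: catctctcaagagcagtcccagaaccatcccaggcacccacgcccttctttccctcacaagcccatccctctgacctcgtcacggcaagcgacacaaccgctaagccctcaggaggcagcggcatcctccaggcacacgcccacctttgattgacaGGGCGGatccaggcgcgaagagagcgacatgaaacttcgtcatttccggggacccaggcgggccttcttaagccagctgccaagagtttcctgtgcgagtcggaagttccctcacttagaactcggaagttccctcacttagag
Zfp352: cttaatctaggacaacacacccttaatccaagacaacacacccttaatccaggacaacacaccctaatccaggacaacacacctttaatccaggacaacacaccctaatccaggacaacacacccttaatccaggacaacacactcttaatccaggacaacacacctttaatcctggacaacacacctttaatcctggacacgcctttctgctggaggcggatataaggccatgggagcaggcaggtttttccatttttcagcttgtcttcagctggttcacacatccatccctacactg
Zfp367: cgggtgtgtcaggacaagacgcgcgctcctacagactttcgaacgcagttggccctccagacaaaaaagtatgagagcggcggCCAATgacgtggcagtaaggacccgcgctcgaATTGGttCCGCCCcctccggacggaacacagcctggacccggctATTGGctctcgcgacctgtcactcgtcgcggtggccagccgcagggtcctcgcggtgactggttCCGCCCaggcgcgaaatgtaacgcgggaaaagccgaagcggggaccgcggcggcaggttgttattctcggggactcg
Zfp775: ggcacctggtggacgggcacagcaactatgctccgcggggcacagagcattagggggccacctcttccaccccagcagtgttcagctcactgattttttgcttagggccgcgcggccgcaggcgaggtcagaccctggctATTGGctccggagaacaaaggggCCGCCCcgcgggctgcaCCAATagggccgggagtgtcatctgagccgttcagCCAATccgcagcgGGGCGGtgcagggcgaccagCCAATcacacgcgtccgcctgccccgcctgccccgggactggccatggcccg
The Zfp622 window is chr15:25984116-25984415 on the plus strand and holds 1 GC box and no CCAAT box. The Zfp352 window, chr4:90218570-90218869 on the plus strand, holds neither motif, and a stretch of near-identical repeats fills much of it. Zfp367, at chr13:64153150-64153449 on the minus strand, has 3 CCAAT boxes and 2 GC boxes, and Zfp775, at chr6:48601757-48602056 on the plus strand, has 4 and 2. The 4 windows thus had no common motif content. A window was found for 142 of the 169 members. A CCAAT box was in 45.8% of those windows, against 40.1% of 9077 windows of genes tested and 37.9% of 27025 RefSeq windows, and a GC box in 48.6%, against 62.4% and 35.9%. Of the members that rose at the 2-cell stage 24 had a window, with a CCAAT box in 45.8% and a GC box in 58.3%, and of those that fell 70 had one, with 47.1% and 38.6%. A match is a run of letters and does not show a bound factor.

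**Figure D2:**
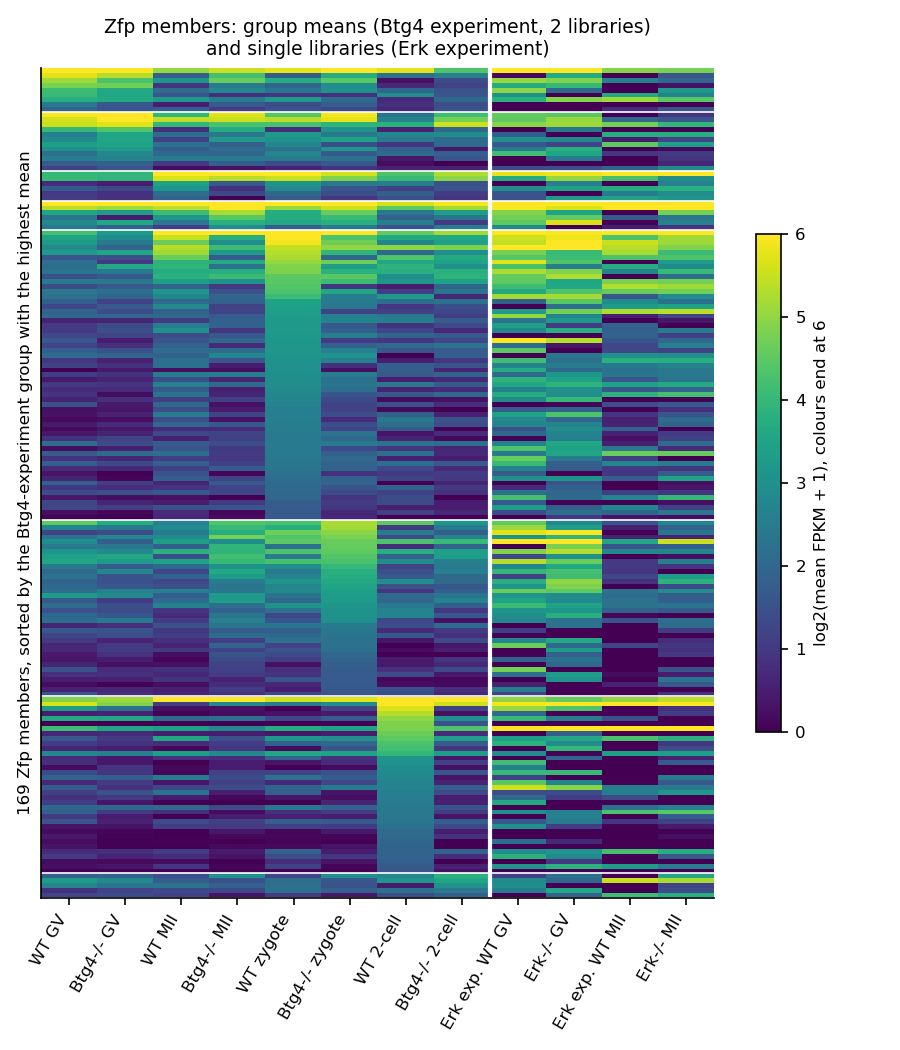
Level of each of the 169 members (rows) as log2 of the mean FPKM + 1, with colours ending at 6, in the 8 groups of the Btg4 experiment (2 libraries each) and the 4 single libraries of the Erk experiment (columns). Rows are blocked by the Btg4-experiment group with the highest mean; the largest blocks are the wild-type zygote (59), the zygote labelled Btg4-/- (36) and the wild-type 2-cell embryo (36).

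The libraries labelled Btg4-/- were then compared with wild type at each stage. The members called, with the share of all genes tested in brackets after each percentage, were few at GV and many at every later stage. At GV 1 member was higher and 9 were lower in the labelled libraries, 0.592% and 5.33% (1.45% and 6.46%). At MII 36 were higher and 32 lower, 21.3% and 18.9% (29.1% and 23.3%). In zygotes 24 were higher and 42 lower, 14.2% and 24.9% (24.4% and 23.3%), and in 2-cell embryos 28 were higher and 53 lower, 16.6% and 31.4% (22.6% and 26.4%). Among members at 2 FPKM in both compared groups, 17 were higher and 10 lower of 61 at MII, 16 and 17 of 97 in zygotes, and 13 and 13 of 62 in 2-cell embryos. Among members that reached the limit in a group outside the comparison, 21 were higher and 35 lower of 147 in zygotes, and 28 and 34 of 149 in 2-cell embryos. In the labelled 2-cell libraries the numbers higher and lower were thus equal among members at the limit in both genotypes. A wild-type step and a genotype comparison that share wild-type libraries are not independent, so their values are only given side by side.

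**Figure D3:**
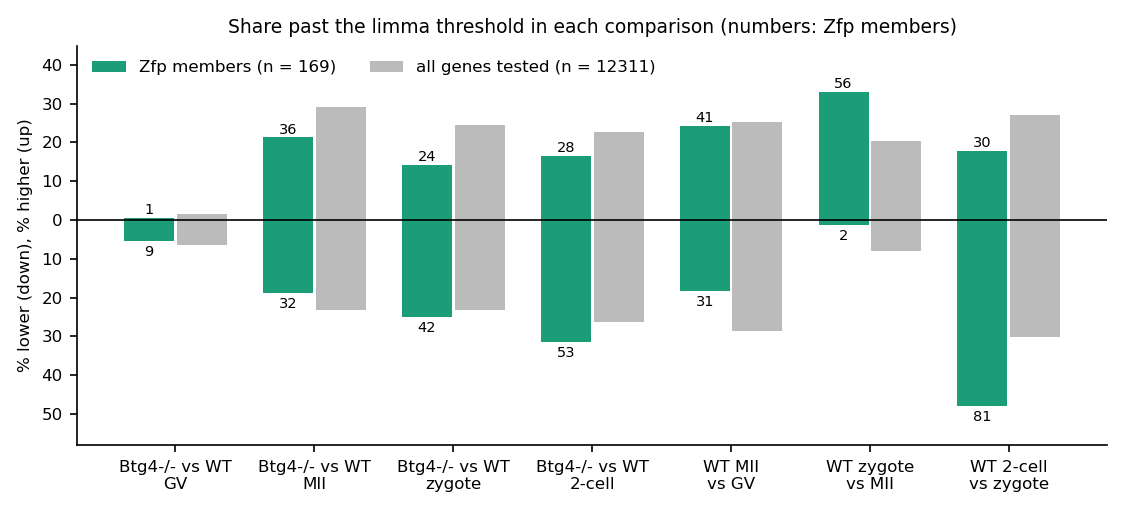
Percent of the 169 members (green, with their number) and of the 12311 genes tested (grey) past the limma threshold, higher above the line and lower below it, in the 4 comparisons of libraries labelled Btg4-/- with wild type and the 3 wild-type steps. The wild-type zygote step has 56 members higher and 2 lower, and the wild-type 2-cell step 30 and 81.

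Single libraries and scaling moved some of these counts. At GV, median-of-ratios scaling gave 5 higher and 5 lower members and quantile normalization 1 and 2, where the median of all genes had been -0.12 as deposited. Without GV replicate 2 labelled Btg4-/- or wild-type GV replicate 1 the lower members at GV numbered 2, and without wild-type GV replicate 2 they numbered 3. At MII 20 members were lower without replicate 1 labelled Btg4-/- and 20 without wild-type replicate 2. In zygotes 15 were higher without wild-type replicate 1, and in 2-cell embryos 17 were higher without wild-type replicate 2. Quantile normalization gave 35 higher and 42 lower members at the 2-cell stage.

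At GV the member that was higher was Zfp961, with 9.58 and 13 FPKM in the pair labelled Btg4-/- and 3.46 and 3.60 FPKM in wild type (log2 difference 1.43 ± 0.23, limma, adjusted p = 3.44e-03). Zfp956 was lower, at 0.304 and 0.498 FPKM against 3.62 and 4.32 FPKM (log2 difference -1.83 ± 0.24, adjusted p = 1.23e-03). Its locus overlaps that of Zfp783 in the files, and the counting is not stated to use strand, so reads of the 2 genes may not be told apart. Zfp212 was at 8.30 and 8.36 FPKM against 16.8 and 19.0 FPKM (log2 difference -1.01 ± 0.13, adjusted p = 1.14e-03). The libraries of the genotypes did not overlap for these 3 genes. Zfp592, a partner of ZMYND8 in a chromatin-reading complex, was at 3.48 and 1.46 FPKM against 6.88 and 6.56 FPKM (adjusted p = 0.0126), and Zfp707 at 3.5 and 3.74 FPKM against 9.40 and 8.29 FPKM (adjusted p = 0.0142). The Zfp707 call was lost without each of the 4 GV libraries in turn, at adjusted p between 0.0626 and 0.110. That of Zfp592 was lost without the labelled replicate 2 (0.109), wild-type replicate 1 (0.0911) or wild-type replicate 2 (0.0706).

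At MII the largest differences upward in the labelled libraries were those of Zfp688, Zfp963, Zfp433 and Zfp524. Zfp688 was at 8.58 and 15.4 FPKM in MII oocytes labelled Btg4-/- and at 1.58 and 0 FPKM in wild type, a log2 difference of 2.96 ± 0.43 (limma, adjusted p = 8.05e-05). Zfp963 was at 15.7 and 18.6 FPKM against 0.958 and 2.37 FPKM (log2 difference 2.82 ± 0.30, adjusted p = 4.43e-06). Zfp433 was at 11.2 and 11.9 FPKM against 2.08 and 0.755 FPKM, and Zfp524 at 20.5 and 14.3 FPKM against 2.44 and 2.50 FPKM. Each of these 4 genes was higher in both labelled libraries than in either wild-type library. At GV, in the libraries labelled Btg4-/-, the levels had been 23.3 and 16.1 FPKM (Zfp688), 13 and 9.43 FPKM (Zfp963), 6.35 and 5.35 FPKM (Zfp433) and 49.9 and 29.9 FPKM (Zfp524).

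The members lowest in the labelled MII libraries relative to wild type were led by Zfp91. It was at 1.5 and 3.20 FPKM in the pair labelled Btg4-/- and at 18.8 and 29.3 FPKM in wild type, a log2 difference of -2.92 ± 0.32 (limma, adjusted p = 6.47e-06). Its MII minus GV step was 0.23 in the labelled libraries (adjusted p = 0.617) against 3.06 in wild type, and the difference of the steps was -2.83 (adjusted p = 2.69e-04). In the files its locus, chr19:12841428-12870613 (mm9), overlaps that of U05342. Zfp407 was at 0.517 and 1.07 FPKM against 6.76 and 8.99 FPKM, Zfp229 at 0.648 and 1.07 FPKM against 7.5 and 6.77 FPKM, and Zfp703 at 1.89 and 1.77 FPKM against 10.6 and 11.6 FPKM. None of the 4 genes overlapped between the genotypes.

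Over all members, the MII minus GV step was larger in the labelled libraries for 29 and smaller for 15, 17.2% and 8.88%, against 26.5% and 16% of all genes tested. This balance turned with scaling, to 23 and 24 with median-of-ratios scaling and 20 and 27 after quantile normalization, as the median of all genes went from 0.22 to 0.04 with the former. The labelled and wild-type courses share no library. Of the 41 members that rose from GV to MII in wild type, 18 rose and 3 fell in the labelled libraries, 43.9% and 7.32%, near the 48.1% and 8.91% of all genes that rose in wild type. Of the 31 that fell, 13 fell and 2 rose, 41.9% and 6.45%, against 38.6% and 18.7% of all genes that fell.

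**Figure D4:**
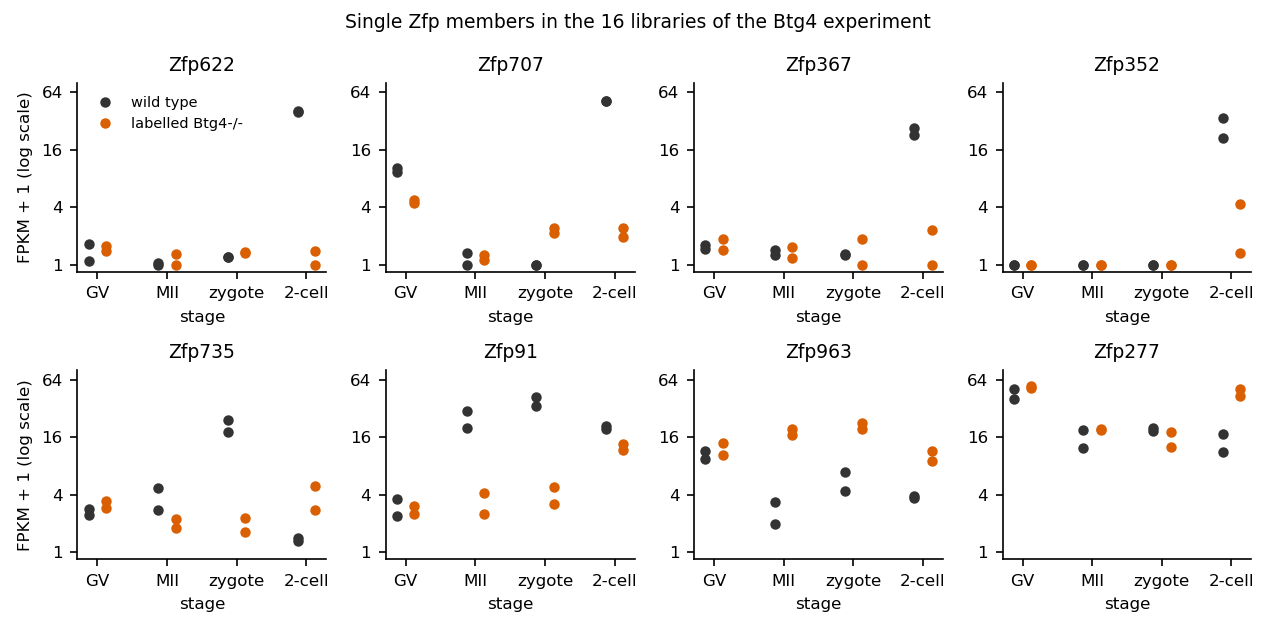
FPKM + 1 on a log axis for 8 members at each stage of the Btg4 experiment, wild type in black and libraries labelled Btg4-/- in orange; each point is 1 library. Zfp622 and Zfp707 reach 39.1 to 51.1 FPKM in wild-type 2-cell embryos and at most 1.46 FPKM in those labelled Btg4-/-.

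The genotype comparisons of zygotes and of MII oocytes share no library, and their calls were set side by side. Of the members higher at MII 20 were also higher in zygotes, 55.6% of the MII list and 83.3% of the zygote list, and of those lower at MII 22 were also lower in zygotes, 68.8% and 52.4%. Over all genes tested the same shares were 65.9% and 78.8% for higher genes and 74.1% of either list for lower genes. With the 2-cell list the MII list had 12 higher members (33.3% and 42.9%) and 11 lower members (34.4% and 20.8%) in common, where all genes gave 36.9% and 47.5% (higher) and 25.7% and 22.7% (lower). The members' overlaps were not tested against those of all genes. Zfp91 stayed low in the labelled zygotes, at 2.17 and 3.86 FPKM against 32.4 and 41.0 FPKM (log2 difference -3.25 ± 0.32, limma, adjusted p = 3.39e-06). Zfp963 stayed high, at 18.4 and 21.4 FPKM against 3.4 and 5.94 FPKM, and so did Zfp688 at 7.53 and 7.49 FPKM against 0.926 and 0.482 FPKM. Zfp524 was at 12.8 and 11.5 FPKM against 3.54 and 1.30 FPKM, with an adjusted p of 0.00553 that became 0.0676 without wild-type zygote replicate 2. The libraries of the genotypes did not overlap for these genes.

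Several members that were high in wild-type zygotes were near 0 in the labelled ones. Zfp735 was at 0.635 and 1.29 FPKM in zygotes labelled Btg4-/- and at 17.0 and 23.1 FPKM in wild type, a log2 difference of -3.43 ± 0.34 (limma, adjusted p = 3.86e-06). Zfp534 was at 0.158 and 0.231 FPKM against 6.05 and 8.05 FPKM (log2 difference -2.74 ± 0.26, adjusted p = 2.38e-06). Zfp148, which binds GC-rich promoters, was at 0.824 and 0.763 FPKM against 6.30 and 8.19 FPKM (log2 difference -2.19 ± 0.28). The opposite case was Zfp472, at 20.5 and 25.6 FPKM in the labelled zygotes against 3.58 and 3.54 FPKM (log2 difference 2.39 ± 0.32, adjusted p = 5.02e-05). In none of the 4 genes did the genotypes overlap. In the KRAB class 10 members were higher and 22 lower in the labelled zygotes (13.3% and 29.3%, median -0.39), and in the other class 14 and 20 (15.1% and 21.5%, median -0.02), against 24.4% and 23.3% of all genes tested. Higher KRAB members numbered 5 without wild-type zygote replicate 1 and 6 without labelled replicate 2, and higher members of the other class 9 without wild-type replicate 2. The classes hold 8 members at 2 FPKM in wild-type zygotes alone and 9 in labelled zygotes alone. The direction of those members here was set by that choice. At MII 15 KRAB members were higher and 15 lower (20.0% each way), against 29.1% and 23.3% of all genes. The other class had 21 and 17 (22.6% and 18.3%). In labelled 2-cell embryos 14 KRAB members were higher and 19 lower (18.7% and 25.3%, median -0.002). The other class had 13 and 34 (14.0% and 36.6%, median -0.455), against 22.6% and 26.4% of all genes. At that stage 18 members at 2 FPKM in wild type alone had their direction set likewise.

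In 2-cell embryos labelled Btg4-/- the members furthest below wild type were Zfp622, Zfp707, Zfp367 and Zfp352. Zfp622 was at 0.419 and 0 FPKM against 39.1 and 39.5 FPKM in wild type (log2 difference -5.08). Zfp707 was at 1.46 and 0.971 FPKM against 50.5 and 51.1 FPKM (-4.55 ± 0.23, limma, adjusted p = 1.18e-08), Zfp367 at 1.32 and 0 FPKM against 21.9 and 26.2 FPKM (-4.03) and Zfp352 at 0.353 and 3.32 FPKM against 33.8 and 20.4 FPKM (-3.5). For Zfp622, Zfp367 and Zfp352 the wild-type 2-cell level is the one that made them members, so no test is given; 18 members reached 2 FPKM in that group alone, which by itself sets them below it in the labelled embryos. No library of one genotype reached the other's range in these genes. Zfp775, whose promoter is printed above, was at 1.03 and 0.851 FPKM against 17.0 and 17.3 FPKM. Of the 30 members that rose from zygote to 2-cell embryo in wild type, 7 rose and 2 fell in the labelled libraries, 23.3% and 6.67%, with a median labelled step of 0.04, against 28.0% and 16.4% and a median of 0.06 for all genes that rose in wild type. Of the 81 that fell, 51 fell and 3 rose, 63.0% and 3.7%, with a median of -1.11, against 44.9% and 14.8% and a median of -0.54 for all genes that fell. Only 14 of the 30 and 74 of the 81 reached 2 FPKM in a group outside wild-type zygotes and 2-cell embryos. For the rest, a level below 2 FPKM in the labelled libraries was set by the choice of members, which does not bear on all genes.

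The members furthest above wild type in the labelled 2-cell embryos were Zfp931, Zfp383, Zfp58 and Zfp277. Zfp383 was at 26.2 and 25.9 FPKM in embryos labelled Btg4-/- and at 5.09 and 5.69 FPKM in wild type, a log2 difference of 2.08 ± 0.16 (limma, adjusted p = 2.85e-07). Zfp931 was at 7.39 and 7.05 FPKM against 0.511 and 0.171 FPKM (2.63 ± 0.26, adjusted p = 3.02e-06), and Zfp58 at 16.4 and 16.6 FPKM against 4.65 and 3 FPKM (1.88 ± 0.23, adjusted p = 2.22e-05). Zfp277 differed from these in course: the labelled 2-cell libraries had 50.0 and 42.4 FPKM, more than the 17.0 and 11.6 FPKM of the labelled zygotes, while wild-type 2-cell embryos had 10.1 and 16.3 FPKM. The genotypes overlapped in none of these 4 genes.

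The steps of the libraries labelled Btg4-/- were fitted in the same way. From GV to MII 37 members rose and 21 fell, 21.9% and 12.4%, against 27.3% and 18.1% of all genes tested, and with median-of-ratios scaling 32 rose and 34 fell. From MII to zygote 26 rose and 4 fell, 15.4% and 2.37%, against 10.3% and 5.38%, and from zygote to 2-cell embryo 14 rose and 74 fell, 8.28% and 43.8%, against 18.3% and 28.2%. Of the 159 members at 2 FPKM in a group outside the compared ones, 24 rose and 4 fell to the zygote. For the 2-cell step 159 again qualified, of which 13 rose and 67 fell. The last steps thus went the same way as in wild type, in libraries that wild type does not share. The members were chosen by levels in both genotypes, 9 of them through the labelled zygotes alone, so this likeness is a description. The rises to the zygote were sensitive to scaling and to each library: 15 and 13 were left with median-of-ratios scaling and after quantile normalization, 8 and 14 without MII replicates 1 and 2 labelled Btg4-/-, and 12 and 6 without zygote replicates 1 and 2. Without MII replicate 1 the falls from GV to MII numbered 13, and without zygote replicate 2 the falls to the 2-cell embryo numbered 49. In the KRAB class 13 rose and none fell from MII to zygote, but 7 rises were left under either other scaling, 2 and 8 without MII replicates 1 and 2, and 6 and 1 without zygote replicates 1 and 2. From zygote to 2-cell embryo 2 of the class rose and 39 fell, with 24 falls without zygote replicate 2. Neither class count was made without the members that the labelled zygotes alone brought in.

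The genotype difference of the zygote to 2-cell step was tested for every member. It was higher in the labelled libraries for 31 members and lower for 38, 18.3% and 22.5%, against 22.2% and 25.9% of all genes tested. The choice of members bears on these counts. It took in 18 members through wild-type 2-cell embryos alone, 8 through wild-type zygotes alone and 9 through labelled zygotes alone. That choice pushes the difference of such a member one way, and the counts were not made without them. Zfp735 had the most positive difference, 4.87 ± 0.48 (adjusted p = 4.80e-06): in wild type it fell by 3.93 from the zygote, and in the labelled libraries it went from 0.635 and 1.29 FPKM to 1.79 and 3.94 FPKM. The fall of Zfp653 was shared, at -3.45 in wild type and -3.07 in the labelled libraries.

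A list of 26 Zfp genes with known roles in DNA binding or chromatin held 16 members. In labelled 2-cell embryos 1 was higher and 10 were lower, with a median of -0.94, against 22.6% higher and 26.4% lower with a median of -0.05 over all genes tested. The choice of members bears on this count: 7 of the 10 were among the 8 that reached 2 FPKM in wild-type 2-cell embryos and not in the labelled ones, and of the 5 at the limit in both genotypes 3 were lower and none higher. The number that was lower was 7 after quantile normalization, 5 with the compared groups fitted alone, and 6 without 2-cell replicate 1 labelled Btg4-/- or without wild-type 2-cell replicate 2. Zfp217, a partner of the CoREST and CtBP corepressors, was at 2.82 and 1.74 FPKM against 19.3 and 17.4 FPKM in wild type (log2 difference -2.58 ± 0.29, limma, adjusted p = 1.00e-05). Zfp143, an activator of small nuclear RNA genes found at chromatin loops, was at 0.387 and 1.46 FPKM against 5.92 and 4.89 FPKM (-1.79 ± 0.31, adjusted p = 4.15e-04). Zfp809, which silences retroviruses in embryonic stem cells, was at 0 and 0.609 FPKM against 4.05 and 11 FPKM (-2.62 ± 0.45, adjusted p = 3.34e-04). Zfp568, a repressor of the placental Igf2 transcript, was at 0.856 and 1.25 FPKM against 3.87 and 4.78 FPKM (-1.38 ± 0.26). Zfp296 was at 17.8 and 21.0 FPKM against 68.8 and 37.9 FPKM (-1.36 ± 0.22). For each of these 5 genes both labelled libraries lay below both wild-type ones.

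Among the other lower members of this list, Zfp42 and Zfp281 reached 2 FPKM in wild-type 2-cell embryos alone, so their values are given with no test. Zfp42, the pluripotency marker Rex1, was at 0.455 and 1.96 FPKM in the labelled 2-cell libraries and at 2.73 and 12.2 FPKM in wild type. Zfp281, a pluripotency factor, was at 1.93 and 0.957 FPKM against 4.23 and 3.08 FPKM. In both genes the labelled libraries lay below the wild-type ones. Zfp445, which maintains imprints, was at 0.847 and 2.72 FPKM against 3.06 and 5.48 FPKM (limma, adjusted p = 0.0316), with 0.291 without the labelled replicate 1 and 0.216 without wild-type replicate 2. Zfp687, also a partner of ZMYND8, and Zfp260 were lower as well, and each lost its call in some fits with 1 library left out: Zfp687 reached an adjusted p of 0.0641 without the labelled replicate 1 and 0.0578 without wild-type replicate 2, and Zfp260 reached 0.222, 0.149 and 0.0671 without the labelled replicate 1 and wild-type replicates 1 and 2. The only higher member was Zfp746 (PARIS, a substrate of the ligase Parkin), at 4.10 and 5.30 FPKM against 2.03 and 1.64 FPKM (adjusted p = 0.00827, and 0.0550 without the labelled replicate 2).

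At the stages before, the list gave 3 higher and 3 lower members in labelled MII oocytes, 18.8% each way against 29.1% and 23.3% of all genes tested, and 2 and 2 in labelled zygotes, 12.5% each way against 24.4% and 23.3%. Zfp687 was higher at MII, at 4.36 and 4.50 FPKM against 1.31 and 1.52 FPKM (log2 difference 1.17 ± 0.26, limma, adjusted p = 0.00182), and Zfp746 at 5.14 and 7.66 FPKM against 1.26 and 1.08 FPKM. Zfp263, a member through the labelled zygotes alone, was in zygotes at 1.86 and 2.32 FPKM against 0.429 and 0.318 FPKM. Zfp143 was higher at both stages, with adjusted p of 0.0252 and 0.0461 that lay above the threshold without each of the 4 compared libraries in turn. Zfp148 was lower at both, with 0.383 and 0.392 FPKM against 2.51 and 4.64 FPKM at MII. Zfp445 was lower in labelled zygotes at 0.800 and 0.559 FPKM against 3.82 and 6.03 FPKM, a log2 difference of -1.8 ± 0.34 (limma, adjusted p = 7.68e-04). From MII to the zygote in wild type 8 of the 16 rose and none fell, where 20.5% of all genes tested rose and 8.0% fell, as against 4 with median-of-ratios scaling, 3 after quantile normalization and 3, 4 and 2 without wild-type MII replicate 1, MII replicate 2 and zygote replicate 2.

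A list of 14 Zfp genes with roles on RNA, ribosomes or the spindle held 11 members. In the labelled libraries 3 were higher and 4 lower at MII, 27.3% and 36.4% against 29.1% and 23.3% of all genes tested. In zygotes and again in 2-cell embryos 1 was higher and 3 were lower, 9.09% and 27.3%, against 24.4% and 23.3% (zygotes) and 22.6% and 26.4% (2-cell) of all genes, so the shares lower were near the background. Zfp598 was at 16.6 and 15.9 FPKM at MII against 39.5 and 40.3 FPKM in wild type, a log2 difference of -1.25 ± 0.18 (limma, adjusted p = 6.99e-05). Its step from GV to MII was 2.21 in the labelled libraries and 2.51 in wild type. Zfp318, which acts in IgD and IgM RNA processing, was at 0.662 and 0.434 FPKM against 3.58 and 4.44 FPKM (-1.69 ± 0.33). Zfp207 (BuGZ, a Bub3 partner at the spindle) was at 59.6 and 73.8 FPKM against 42.0 and 41.1 FPKM at MII (0.66 ± 0.15, adjusted p = 0.00258, but 0.27 with an adjusted p of 0.192 after quantile normalization), and at 34.8 and 36.5 FPKM against 21.6 and 21.5 FPKM in 2-cell embryos (0.70 ± 0.15, adjusted p = 0.00206). Zfp706 was at 76.5 and 83.5 FPKM in labelled 2-cell embryos against 215 and 219 FPKM (-1.43 ± 0.13, adjusted p = 1.61e-06), and Zfp346 (JAZ, which binds double-stranded RNA) at 0 and 0.745 FPKM against 4.62 and 5.31 FPKM, the group that alone made it a member. The genotypes did not overlap for any of these values. Zfp106, an RNA-binding protein, was lower at MII with an adjusted p of 0.0402 that lay between 0.10 and 0.130 without each of the 4 libraries in turn, and lower in zygotes at 0.585 and 0.198 FPKM against 1.98 and 3.4 FPKM (-1.40 ± 0.25, adjusted p = 5.82e-04).

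The partners of KRAB proteins were followed in a separate list of 31 TRIM28 corepressor and heterochromatin genes, of which 29 were tested. In MII oocytes labelled Btg4-/- 2 were higher and 20 lower, 6.9% and 69.0% against 29.1% and 23.3% of all genes tested, with 20 or 21 lower under the other scalings and 18 to 20 with 1 library left out. In zygotes 3 were higher and 14 lower (10.3% and 48.3%, against 24.4% and 23.3%), or 9 lower without wild-type zygote replicate 2. In 2-cell embryos 6 were higher and 11 lower (20.7% and 37.9%, against 22.6% and 26.4%). Trim28 was at 18.7 and 19.0 FPKM in labelled GV oocytes against 39.3 and 35.2 FPKM in wild type (log2 difference -0.95, limma, adjusted p = 0.00534), at 49.2 and 55.4 FPKM in labelled MII oocytes against 94.1 and 102 FPKM in wild type, and at 61.6 and 70.2 FPKM against 68.7 and 58.5 FPKM in zygotes, so the genotypes were apart at GV and MII and overlapped in zygotes. In the wild-type libraries of the Btg4 experiment 17 of the list rose from GV to MII and 2 fell (58.6% and 6.9%, against 25.2% and 28.5% of all genes). From zygote to 2-cell embryo 15 fell and 6 rose (51.7% and 20.7%, against 30.2% and 27.1%). Between the single wild-type GV and MII libraries of the Erk experiment some genes of the list rose and others fell.

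Related zinc finger families were counted in the same comparisons, without a test between them. Of 13 Klf genes tested, 10 were lower and none higher in labelled 2-cell embryos, 76.9% lower where 26.4% of all genes tested were lower and 22.6% higher. Of 29 Zbtb genes, 8 were lower and 3 higher there, 27.6% and 10.3%, and 11 lower and 2 higher in labelled zygotes, 37.9% and 6.9% against 23.3% and 24.4% of all genes. These lower counts became 5 at the 2-cell stage after quantile normalization, 4 there with the compared groups fitted alone, and 6 in zygotes without labelled replicate 1 or wild-type replicate 2. Klf2, Klf3, Klf5, Klf8, Klf9 and Zbtb5 passed the filter of 1 FPKM through wild-type 2-cell embryos alone, and Zbtb20 through wild-type zygotes alone. That filter set their direction in the genotype comparison of that stage, and the Klf and Zbtb counts were not made without them. Of 7 Zkscan genes, whose proteins carry a SCAN domain and often a KRAB box, 5 rose and none fell from MII to zygote in wild type (3 without MII replicate 2 or zygote replicate 1), and 6 fell and none rose from zygote to 2-cell embryo. All genes tested gave 20.5% rising and 8.0% falling at the first of these steps and 27.1% and 30.2% at the other.

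By position, 74 of the members lay within 200 kb of another member in the mm9 coordinates of the files, in 22 clusters, and 44 of the 169 were on chromosome 7. Neighbours moved one way in some clusters and not in others, as 3 clusters picked after their values were seen show. Zfp229, Zfp942 and Zfp943 at chr17:21870690-22131333, all with the KRAB pattern, had a median of -1.27 in labelled MII oocytes with 2 lower and none higher, and all 3 were lower in labelled zygotes. Zfp781, Zfp433, Zfp873 and Zfp938 at chr10:81205565-81704020 had a median of 1.16 in labelled MII oocytes, with 2 higher and 1 lower. Zfp623 and Zfp707 at chr15:75771381-75806295 were both lower in labelled 2-cell embryos. Duplicated neighbours share sequence, and how reads matching several genes were divided is not given in the sources used here, so values of close copies are uncertain. The loci of 12 members overlapped another gene, among them Zfp91, Zfp593, Zfp653, Zfp687 and Zfp956.

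The Erk experiment was outside the choice of members. With 1 library per group there is no replicate check and no test, and a member is counted where its FPKM + 1 differed by 2-fold or more. At GV 39 members were higher and 39 lower in the library labelled Erk-/-, 23.1% each way, against 15.3% and 19.4% of the same 12311 genes. At MII 38 were higher and 10 lower, 22.5% and 5.92%, against 27.0% and 6.59%, with 65 higher where 0.1 was added in place of 1. In the wild-type MII library 54 members were listed at 0, against 23 in the MII library labelled Erk-/-, so many of these ratios set a low level against an entry of 0.

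**Figure D5:**
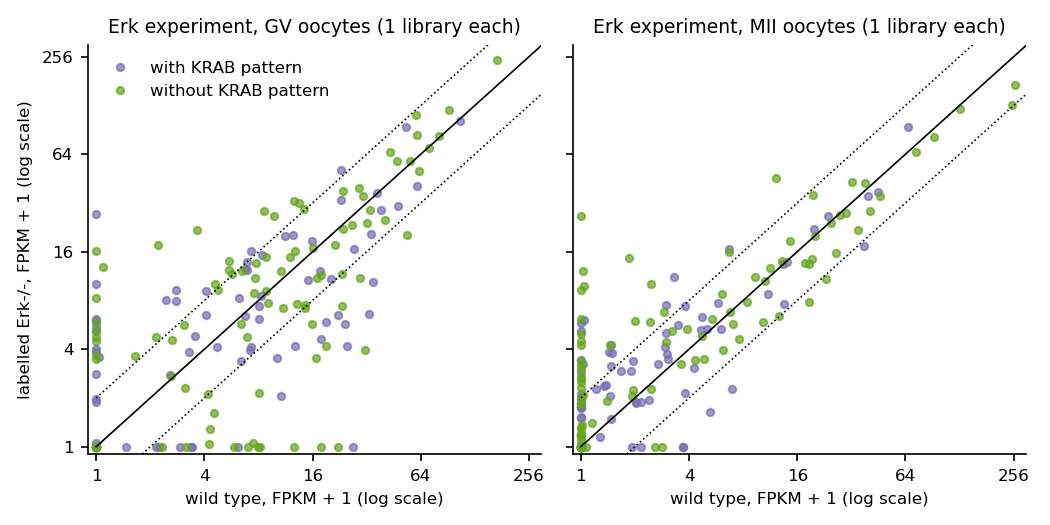
FPKM + 1 of each of the 169 members on log axes, the library labelled Erk-/- (vertical) against the wild-type library (horizontal), at GV (left) and MII (right), coloured by KRAB class; the solid line is equality and the dotted lines a 2-fold ratio. At GV 39 members lie past 2-fold on each side, and at MII 38 lie above and 10 below.

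Zfp511 was the member with the widest gap at MII, at 25.6 FPKM in the library labelled Erk-/- and listed at 0 in wild type, where the Btg4 experiment had 15.5 and 17.3 FPKM in wild-type MII oocytes. Zfp672 was at 11.2 against 0.0333 FPKM and Zfp553 at 8.77 against 0.0357 FPKM, where the wild-type MII oocytes of the Btg4 experiment had 2.30 and 1.25 FPKM and 7.45 and 19.9 FPKM. In the other direction Zfp930 was at 0.639 against 4.21 FPKM, and Zfp936 and Zfp160 were listed at 0 against 2.71 and 2.70 FPKM. From GV to MII, 85 members were lower and 21 higher in the wild-type libraries of this experiment (50.3% and 12.4%, against 40.7% and 17.5% of all genes), and 76 lower and 35 higher in those labelled Erk-/- (45% and 20.7%, against 28.8% and 20.3%). The median KRAB member was at 5.70 FPKM in the wild-type GV library and 0.917 FPKM in the wild-type MII library, while in the Btg4 experiment the wild-type pair had 1.43 and 1.33 FPKM at GV and 1.59 and 2.02 FPKM at MII. The direction from GV to MII thus differed between the wild-type libraries of the 2 experiments.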

How the data were processed

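RNA-seq of 20 mouse libraries was used: 8 groups of 2 in the Btg4 experiment and 4 single libraries in the Erk experiment. The authors deposited 1 table per library with gene-level FPKM and its interval; per the submitters' processing notes, CASAVA 1.8, TopHat and Cufflinks were used with mm9, and the versions of the latter tools, the annotation and the handling of multiply mapped reads are, in the sources used here, not given. Each file has 23813 rows for 23309 symbols, and the FPKM of the 260 symbols with more than 1 locus were summed. FPKM are not counts, so limma 3.58.1 (R 4.3.3) was fitted to log2(FPKM + 1) over the 16 Btg4 libraries as a group-means model with an intensity trend, on 12311 genes with a mean of at least 1 FPKM in any group. P-values were two-sided and adjusted by Benjamini-Hochberg, with a threshold of 0.05. A single fit was used because 2 libraries against 2 leave few residual degrees of freedom. Other steps used Python 3.11.15, pandas 2.3.3, numpy 2.4.6 and matplotlib 3.10.9.

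The members, the gene lists and the tests were chosen with earlier results of these data known. The genes named are, per comparison, the 4 members with the largest positive and the 4 with the largest negative change among those past the threshold whose library values do not overlap, the 6 with the highest mean, the members of the 2 role lists that pass in a genotype comparison, the genes nearest the membership limit, and the 3 with the largest ratio each way at MII in the Erk experiment among those with at least 2 FPKM in either library. Zfp420 and Zfp423 also met these rules, and their values are not given. Zfp775 and the 3 clusters of neighbours were picked after their values had been seen. The KRAB pattern and C2H2 fingers were searched in the longest ATG-started reading frame of GENCODE vM21 coding transcripts, because RefSeq proteins were not used here; 278 of 21845 coding symbols hold the KRAB pattern. Promoter windows come from RefSeq (GRCm38.p6) and are kept apart from the mm9 coordinates of the files. Alternatives were a pseudocount of 0.1, no filter, a filter at 5 FPKM, median-of-ratios scaling, quantile normalization, a replicate block, the compared groups alone, each library left out, and other limits for membership. The check of the Erk-/- label at the level of the targeted gene is not reported here.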

Additional observations from a re-analysis of the deposited data

Results flagged for a closer look

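A named member stands here where its change between stages differed between the libraries labelled Btg4-/- and wild type, by limma's test of that difference with Benjamini-Hochberg adjustment over 12311 genes. Values are the labelled step minus the wild-type step on the log2(FPKM + 1) scale, with 2 libraries in each of the 4 groups behind each value.

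From GV to MII the step was more positive in the labelled libraries for 6 of these members. The difference was 2.79 for Zfp524 (adjusted p = 0.00734), 2.60 for Zfp688 (0.00425), 2.60 for Zfp963 (2.83e-04), 2.58 for Zfp513 (1.19e-05), 1.72 for Zfp433 (0.0209) and 1.62 for Zfp593 (0.0436). Within the Btg4 experiment Zfp513 fell by 4.59 in wild type and by 2.01 in the labelled libraries, and Zfp593 by 3.90 and 2.28. It was more negative for 5 members: -2.83 for Zfp91 (2.69e-04), -2.60 for Zfp229 (4.45e-04), -1.85 for Zfp407 (0.00130), -1.54 for Zfp580 (0.0459) and -1.47 for Zfp703 (0.00193).

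From zygote to 2-cell embryo the step was more positive in the labelled libraries for 6 members. The difference was 4.87 for Zfp735 (adjusted p = 4.80e-06), 3.30 for Zfp931 (1.07e-05), 2.30 for Zfp60 (8.06e-05), 2.11 for Zfp277 (3.87e-04), 2.02 for Zfp873 (0.00464) and 1.73 for Zfp383 (3.60e-05). It was more negative for 4 members, the genes whose transcripts reached 20.4 to 51.1 FPKM in wild-type 2-cell embryos: -5.74 for Zfp707 (6.37e-08), -5.24 for Zfp622, -4.11 for Zfp367 and -3.50 for Zfp352, the last 3 without a p because that level alone made them members. Zfp707 was listed at 0 in wild-type zygotes and Zfp352 in all zygotes, so the size of these fitted differences depends on the pseudocount.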

How the results depend on the processing

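Of 84 changes of named members, 62 kept their direction and call in every setting that gave them a value, and 11 of the 84, 5 of them among these 62, had none with the filter at 5 FPKM; Zfp706 at MII turned, from 0.37 to -0.024 on the log2 scale with quantile normalization. Members called at GV were 5 higher and 5 lower with median-of-ratios scaling, 2 lower with quantile normalization and 4 lower with the compared groups alone. From MII to zygote in wild type 37 rose and 6 fell with median-of-ratios scaling, 29 and 4 with quantile normalization, and 0 fell with the compared groups alone. The genotype difference of the MII minus GV step was lower for 24 and 27 members under these scalings. In 2-cell embryos labelled Btg4-/- 33 were lower with the filter at 5 FPKM, and 11 higher and 30 lower with the compared groups alone; with that filter 19 rose from zygote to 2-cell embryo in wild type. With membership at 5 FPKM (107 members), 0.935% were higher and 8.41% lower at GV, 25.2% were higher in 2-cell embryos, and 1.87% fell from MII to zygote. Of members that reached 2 FPKM outside the compared groups, 10.1% rose from zygote to 2-cell embryo. In the Erk experiment 65 were higher at MII with 0.1 added. With at least 5 fingers in place of the KRAB pattern, 37.9% rose to the zygote and 49.2% fell to the 2-cell embryo. The cause was not tested for any of these.

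With 1 library left out, higher and lower members ranged over 1 to 1 and 2 to 7 at GV, 28 to 33 and 20 to 29 at MII, 15 to 22 and 30 to 38 in zygotes, and 17 to 27 and 39 to 54 in 2-cell embryos. The wild-type steps ranged over 31 to 41 and 26 to 28 (MII), 23 to 42 and 0 to 2 (zygote) and 29 to 33 and 63 to 78 (2-cell), and the genotype differences of steps over 22 to 30 and 10 to 18 (MII minus GV) and 24 to 32 and 31 to 40 (2-cell minus zygote). A lone library is assumed to vary like the other groups.

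The replicate numbers did not pair the samples: deviations of same-numbered libraries correlated at -0.01 (GV), 0.02 (MII), 0.05 (zygote) and 0.02 (2-cell). With the replicate number as a block, 34 members were higher and 29 lower at MII, 24 and 43 in zygotes and 26 and 54 in 2-cell embryos, and 55 rose and 1 fell from MII to zygote in wild type.

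The files give FPKM without counts, so depth is only an estimate, and members near 2 FPKM have wide intervals.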

Other observations

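Zfp57, which maintains imprints and was set aside from the members by name, is not described here. The labelled 2-cell embryos also differed from wild type in oocyte markers: the 12 markers summed to 8137 and 8367 FPKM in the pair labelled Btg4-/- and to 2090 and 2275 FPKM in wild type. Their part in the differences of the members at that stage was not tested.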
